A study of Arabidopsis thaliana with 8 samples.

Results

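Seeds of Arabidopsis thaliana accession Col-0 that had taken up 30 µM abscisic acid (ABA) during 24 h of imbibition were compared with seeds kept for 24 h in water. The comparison rests on 4 of the 8 arrays of the series, 2 of seeds in 30 µM ABA and 2 of seeds in water, and 2 arrays of untreated dry seed place each change against the starting level. The remaining 2 arrays, of seeds imbibed for 24 h in 3 µM ABA, entered the fit and are given beside the results as an intermediate dose. All groups share the Col-0 genotype and the label seed, so every value is an average over embryo, endosperm and seed coat. No transgene or mutation is named for any group, and the labels do not say whether arrays A and B of a group came from separate seed lots. The p-values therefore measure only the spread between these arrays, which may be technical. Every non-control probe set of the array was a candidate, and 15922 of 22746 passed a filter on low signal and were tested. A probe set is a group of short oligonucleotides that together report 1 transcript, and its value is a background-corrected hybridisation signal.

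ABA is the hormone that accumulates while a seed matures and that holds a mature seed in dormancy. It acts through receptors that inhibit protein phosphatases, which frees kinases to activate basic leucine zipper factors, and these switch on genes for storage proteins, oil body proteins and late embryogenesis abundant (LEA) proteins. LEA proteins and dehydrins are hydrophilic proteins linked to survival of drying. In water, an Arabidopsis seed normally loses these maturation transcripts and builds up transcripts for cell wall loosening, cell division and photosynthesis, and supplied ABA blocks germination.

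The imbibed arrays had median signals of 33.6 and 32.6 in 30 µM ABA and of 30.9 and 32.2 in water, and the dry seed arrays had 21.4 and 21.0, although every array had nearly the same 2% trimmed mean, between 100.007 and 100.009, in the deposited values. The 2 arrays in 30 µM ABA correlated at r = 0.983 with each other and the 2 in water at 0.972, over log2 signals of the tested probe sets. Arrays in 30 µM ABA and in water correlated at 0.964 to 0.971, only just under the value within the water pair, and imbibed arrays correlated with dry seed arrays at 0.583 to 0.703. The label seed was checked on its markers. The 4 oil body proteins had summed signals of 2404 and 2700 in 30 µM ABA, 1100 and 1218 in water, and 9308 and 5049 in dry seed. Markers of guard cell precursors and root hairs, cell types of the growing plant, summed to 59.2 and 58.6 in 30 µM ABA, 69.4 and 72.7 in water, and 6.47 and 6.67 in dry seed over 3 measured genes.

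At 24 h, 66 probe sets were higher and 6 were lower in 30 µM ABA than in water (limma, adjusted p under 0.05). That is 0.415% of the tested probe sets higher and 0.0377% lower. The higher group held 36 probe sets of a single nuclear gene, 10 of plastid genes, 1 of a mitochondrial gene, 2 that match several genes and 17 with no gene name in the annotation used. The lower group held 4 named nuclear genes and 2 unnamed probe sets. The log2 differences of the higher group ran from 0.95 to 3.68, with a median of 1.61, whereas all tested probe sets had a median of 0.016 with quartiles at -0.16 and 0.20. The weakest called probe set had an adjusted p of 0.0458 and the next one outside had 0.0507. In bulk seed RNA, fewer cells of a type and less RNA per cell cannot be told apart.

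Without any model, both ABA arrays lay above both water arrays for 3552 probe sets (22.3%) and below both for 3055 (19.2%). With 2 arrays against 2, chance alone separates the groups, in either direction, with a probability of 0.333. Arrays that do not overlap are therefore weak evidence on their own, here and for the genes below. An unadjusted p under 0.05 was reached by 1350 probe sets (8.48%). Under scaling to the hybridisation spike-ins, which are control RNAs added at known amounts, 202 probe sets were called, of which 62.4% were higher, against 91.7% higher of the 72 calls above. It put the median log2 difference of all probe sets between 30 µM ABA and water at -0.18, against 0.016. All 72 kept their direction under it, and 53 of them were still called. None of the 6 lower probe sets was called with a pseudocount of 1, with no filter or without the intensity trend in limma, where 38, 11 and 2 probe sets were called and all were higher. When 1 of the 4 compared arrays was left out, the number of calls fell to between 0 and 5, as given with the other settings further on.

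**Figure D1:**
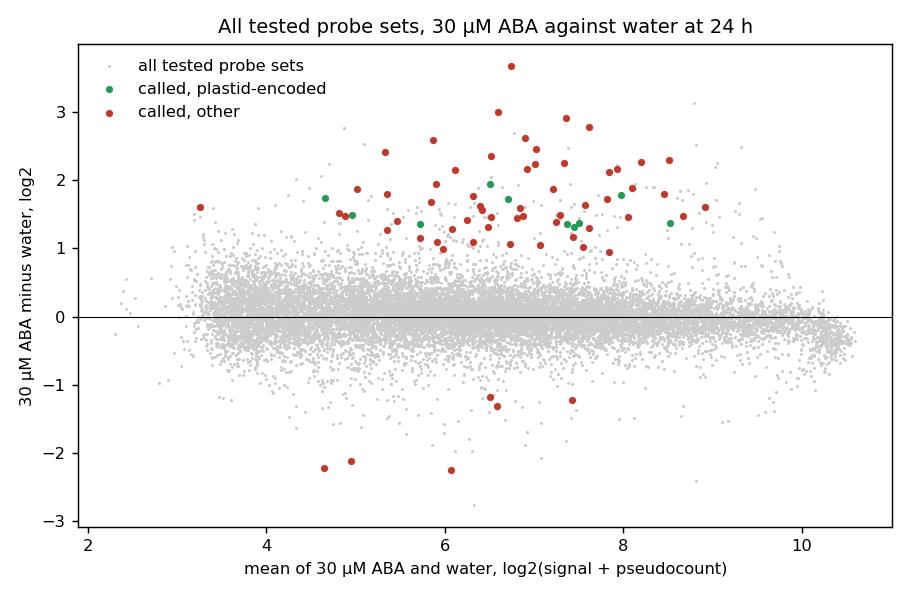
Log2 difference between 30 µM ABA and water (vertical axis) against the log2 of the mean signal of those 4 arrays plus a constant (horizontal axis). There is 1 point for each of 15922 tested probe sets, with called plastid-encoded ones in green and all other called ones in red. The 66 higher calls reach 3.68, the 6 lower calls reach -2.24, and the brightest probe sets lie slightly below 0.

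The difference depended on brightness. The 390 probe sets with a mean log2 signal above 10 had a median of -0.26, and 91.8% of them were below water. The 6128 with a mean between 6 and 8 had a median of 0.018. After quantile normalization the same bright probe sets had a median of 0.0097. No probe set with a mean above 9 was called in either direction, so lists with many bright members are read below with this in view.

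The lists below were drawn up with earlier results of these arrays known, so their counts and medians are not independent evidence. LEA genes carried some of the largest differences. Of the 23 tested members outside the dehydrins, 4 were called higher than water and none lower, and 18 lay above water. An unadjusted p under 0.05 was reached by 12, and the list's median was 0.78, against 0.016 for all probe sets. Over all tested probe sets, 0.415% were called higher and 8.48% had an unadjusted p under 0.05. For AT2G42560 the signal was 147 and 189 in 30 µM ABA, 13.03 and 22.7 in water, and 1928 and 1447 in dry seed. Both ABA arrays stood well above both water arrays and well below both dry arrays. The difference from water was 3.00 ± 0.35 (log2 ± SE, n = 2 arrays a group; limma adjusted p = 0.0158). AT4G36600 had 205 and 472 in 30 µM ABA, 28.4 and 61.2 in water, and 2820 and 1701 in dry seed, a difference from water of 2.78 ± 0.49 (limma adjusted p = 0.0458). Its 2 ABA arrays differed more than 2-fold from each other and still did not overlap with water. AT2G18340 had 60.2 and 108 in 30 µM ABA and 17.5 and 28.7 in water, and AT5G44310 had 509 and 686 in 30 µM ABA and 181 and 242 in water. These last 2 LEA genes differed from water by 1.68 ± 0.28 and 1.48 ± 0.23 (limma adjusted p = 0.0423 and 0.0352).

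The rest of the LEA list was uneven. Chosen after the values were seen, AT3G22490 (2.69) and AT3G53040 (2.52) had differences as large as those of called members but missed the threshold, with water arrays that differed more than 2-fold from each other. AtLEA4-1, AT3G02480 and LEA18, also chosen after the values were seen, had differences between -0.22 and 0.12. These 3 genes had signals between 836 and 1370 on the 4 compared arrays, near the upper end of the imbibed range in both media. The highest signal of any probe set was between 1381 and 2254 on the imbibed arrays, and 3908 and 2322 on the dry seed arrays.

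The 6 dehydrins split evenly, with 3 above and 3 below water, 1 called, and a median of 0.46. AT4G39130, the called dehydrin, had signals of 130 and 273 in 30 µM ABA, 19.8 and 37.1 in water, and 708.5 and 427 in dry seed. In 30 µM ABA it stood at 35.6% of its mean dry seed signal, and in water at 5.02%. The difference from water was 2.62 ± 0.41 (limma adjusted p = 0.0325). COR47, a cold- and drought-induced dehydrin named here after its values were seen, was one of the 3 below water. It had 266 and 324 in 30 µM ABA, 235 and 399 in water, and 7.13 and 6.01 in dry seed, so its signal was high after imbibition in both media.

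Oil body and storage protein transcripts had higher signal in ABA than in water. Oleosins are the structural proteins of the oil body surface. All 4 measured members lay above water on both ABA arrays, each with an unadjusted p under 0.05 and 1 called, with a list median of 1.24. The shares of all tested probe sets were 22.3% with both ABA arrays above water, 8.48% with such a p and 0.415% called higher. The oleosin AT3G18570 had the lowest adjusted p of all probe sets. Its signal was 214 and 205 in 30 µM ABA, 44.2 and 38.2 in water, and 1502 and 1315 in dry seed. The 2 arrays of each group lay close together, and the difference from water was 2.25 ± 0.19 (limma adjusted p = 0.00389). Against dry seed the same gene stood at -2.72 in 30 µM ABA and -4.97 in water (log2). Its mean signal was 14.9% of that in dry seed in ABA and 2.92% in water.

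The list of cupin and 2S seed storage proteins had 6 tested members, all of them cupin-type genes. All 6 lay above water on both ABA arrays, 5 had an unadjusted p under 0.05, 2 were called higher, and the median was 1.11. The same shares over all tested probe sets were 22.3%, 8.48% and 0.415%. The cupin gene AT4G36700 had 312 and 548 in 30 µM ABA, 102 and 115 in water, and 1630 and 1240 in dry seed. AT1G03890, which encodes a cruciferin-type storage globulin, had 73.0 and 65.2 in 30 µM ABA, 29.6 and 27.9 in water, and 2056 and 1919 in dry seed. The 2 genes thus stood at different shares of their dry seed signal in ABA, 29.9% and 3.48%. Their differences from water were 1.89 ± 0.27 and 1.16 ± 0.18 (limma adjusted p = 0.0273 and 0.0294). PAP85, a vicilin-type storage protein named here after its values were seen, was near the top of the imbibed signal range with 1376 and 1324 in 30 µM ABA and 1094 and 990 in water, a difference of 0.37 that did not pass.

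Regulators of maturation and of ABA response had 3 tested members. Of these, 2 were called higher than water, against 0.415% of all tested probe sets. Both calls were lost with a common median and with spike-ins, where the list's median was 1.09 and 0.96, against 1.16 as reported. EEL, a basic leucine zipper factor of late seed development, had 78.4 and 78.3 in 30 µM ABA, 37.6 and 31.8 in water, and 471 and 497 in dry seed, a difference from water of 1.10 ± 0.19 (limma adjusted p = 0.0445, and 0.0561 with a common median and 0.402 with spike-ins). AGL67, a MADS-box factor expressed in maturing seed, had 82.0 and 148.5 in 30 µM ABA, 37.9 and 50.6 in water, and 1080 and 1002 in dry seed. The AGL67 arrays did not overlap, but the difference of 1.26 ± 0.30 had a limma adjusted p of 0.142. AT5G18450, also known as DREB2G, belongs to the AP2/ERF family of drought-response factors and was not in that list. Its signal was 364 and 368 in 30 µM ABA, 62.0 and 105 in water, and 2665 and 2102 in dry seed, a difference of 2.12 ± 0.33 (limma adjusted p = 0.0322).

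PUB19 was the exception among the nuclear genes. It encodes a U-box ubiquitin ligase that is itself induced by ABA and drought. Its signal was 255 and 214 in 30 µM ABA, 116 and 89.6 in water, and 93.1 and 128 in dry seed. Seeds in water and dry seed overlapped, and only the ABA arrays stood above both. The difference was 1.16 ± 0.21 from water and 1.07 ± 0.21 from dry seed (limma adjusted p = 0.0458 and 0.00106). Against water the adjusted p in limma was 0.0681 with a common median and 0.276 with spike-ins. The difference from dry seed was 0.44 and not called after scaling to a common median, with a limma adjusted p of 0.0920. In 3 µM ABA the signal was 179 and 198, between the other 2 imbibed groups.

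The largest nuclear differences also included genes outside these families. AT2G19320 had 55.4 and 72.3 in 30 µM ABA, 7.603 and 9.85 in water, and 560 and 699 in dry seed. AT3G15280 had 205 and 370.5 in 30 µM ABA, 28.8 and 38.3 in water, and 3344 and 2322 in dry seed. AT5G43770, which encodes a proline-rich protein, had 140 and 159 in 30 µM ABA, 20.6 and 32.8 in water, and 2359 and 1631 in dry seed. The ABA arrays of all 3 genes stood between water and dry seed, with differences from water of 2.41, 2.91 and 2.35. AT5G01670, an aldo-keto reductase family member of the kind that detoxifies reactive aldehydes, had 346.5 and 444 in 30 µM ABA and 69.9 and 102.5 in water. AT2G29300, whose product resembles tropinone reductase, had 123.3 and 93.6 in 30 µM ABA and 15.8 and 27.7 in water. AT5G55750, a hydroxyproline-rich protein gene, had 74.4 and 107 in 30 µM ABA and 13.9 and 28.9 in water. None of these overlapped between groups. The remaining genes named by rank, AT1G27990, AT5G45690 and AT5G45310, differed from water by 2.29, 2.27 and 2.17.

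Dry seed signal exceeded both imbibed groups for most of these transcripts. By group means, dry seed stood above both 30 µM ABA and water for 56 of the 66 higher probe sets, between them for 5 and below both for 5. The share of all tested probe sets in each order was not counted. The low-signal filter averaged all 8 arrays, so a high dry seed signal could help a probe set into the test. Among the 36 nuclear genes, 35 were above in dry seed and were also called lower in 30 µM ABA than in dry seed, and the other was PUB19. Over all tested probe sets, 5851 were called higher (36.7%) and 4144 lower (26.0%) in 30 µM ABA than in dry seed. For water, 5973 were called higher (37.5%) and 4535 lower (28.5%) than dry seed. This split depends on the scaling: 58.5% of the calls between 30 µM ABA and dry seed were higher, but 34.8% after scaling to a common median and 82.3% after spike-in scaling, and for water 56.8% were higher, but 37.8% and 83.2%. Of the 35 nuclear genes, 33 to 35 were called lower in ABA than in dry seed under the 3 other scalings. The comparisons with water and with dry seed share the same ABA or water arrays, so their values are given side by side and not as independent results. Over the 35 genes the median share of dry seed signal was 14.4% in 30 µM ABA, with a range of 3.32% to 37.4%, and 3.51% in water, with a range of 0.703% to 13.2%. Such shares are on the deposited scale and move with the scaling. The median log2 difference of these genes between ABA and dry seed was -2.80, or -3.44 with a common median and -2.11 with spike-ins. Between water and dry seed it was -4.80, or -5.37 with a common median and -3.91 with spike-ins.

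On a log2 scale on which water is 0 and dry seed is 1, the 35 genes had a median position of 0.43 in 30 µM ABA, with a range of 0.20 to 0.63. The median was 0.45 after quantile normalization, 0.36 after scaling to a common median and 0.47 after spike-in scaling. The choice of the 35, by a called difference from water and a dry seed mean above both, fixes that they lie between 0 and 1. It also favours large differences from water. The positions, and the shares of dry seed signal, therefore only describe these chosen genes. The highest position of any gene over these scalings was 0.75. AT1G16770 had the smallest share of its dry seed signal in ABA, with 45.4 and 48.0 in 30 µM ABA, 8.65 and 11.2 in water, and 1444 and 1372 in dry seed. AT1G22600 had the largest share, with 326 and 448 in 30 µM ABA, 118 and 156 in water, and 1105 and 966 in dry seed. Both genes were singled out for these extremes after their values were seen.

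**Figure D2:**
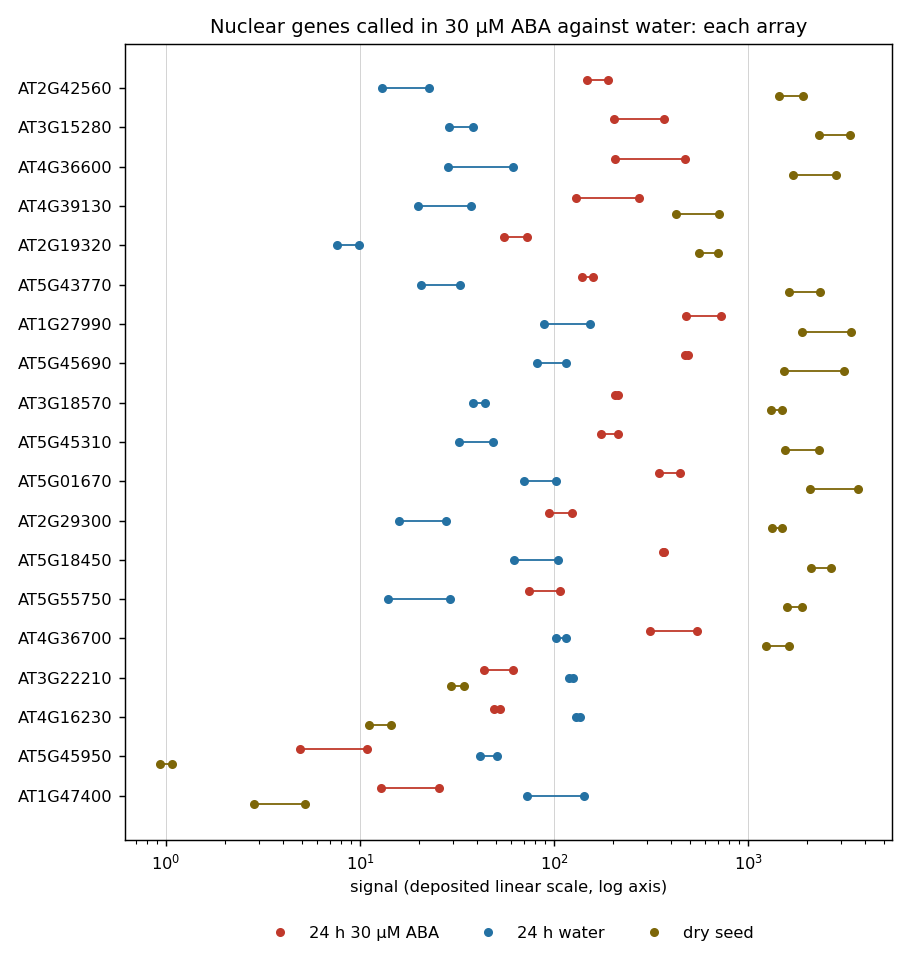
Deposited signal on each array (horizontal log axis) for the 15 nuclear genes with the largest higher difference and the 4 lower genes, 1 row per gene. Each point is 1 array, and a line joins the 2 arrays of 30 µM ABA, of water or of dry seed. In the upper 15 rows the ABA pair lies between water and dry seed, and in the lower 4 rows between dry seed and water.

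The 3 µM ABA arrays were intermediate. The mean signal in 3 µM ABA lay between water and 30 µM ABA for 65 of the 66 higher probe sets and for all 6 lower ones. The oleosin AT3G18570 gave 44.2 and 38.2 with water alone, 71.6 and 98.8 with 3 µM ABA, and 214 and 205 with 30 µM ABA, so the 3 groups did not overlap. For AT2G42560, water gave 13.03 and 22.7, 3 µM ABA gave 24.2 and 58.6, and 30 µM ABA gave 147 and 189. The exception was AT3G16120, a gene of the dynein light chain type, for which water gave 76.5 and 43.3, 3 µM ABA gave 48.6 and 64.9, and 30 µM ABA gave 175 and 161. Since the called probe sets were chosen by their difference at 30 µM, the intermediate place of 3 µM is a description.

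Most transcripts of the plastid genome had higher signal in 30 µM ABA than in water. These genes encode part of the photosynthetic machinery, the plastid ribosome and the plastid RNA polymerase. Of 68 tested plastid genes, 67 had a higher mean log2 signal in 30 µM ABA than in water. An unadjusted p under 0.05 was reached by 44 of the plastid genes, against 8.48% of all tested probe sets. By the adjusted test 10 plastid genes were called higher, against 0.415% of all tested probe sets, and none lower. The median difference of the plastid genes was 0.67, against 0.016 over all probe sets. Both ABA arrays lay above both water arrays for 51 of the 68, against 22.3% of all tested probe sets. Plastid genes are co-transcribed in groups and were read on the same arrays, so they are not independent of each other. The median was 0.64 after quantile normalization and 0.47 after spike-in scaling. Between 8 and 11 plastid genes were called under the 3 other scalings, and atpA, psbB, psaB, ndhD and rps2 were not called with spike-ins.

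Among RNA polymerase genes, rpoC2 differed most, with 128 and 153 in 30 µM ABA, 38.9 and 28.7 in water, and 33.8 and 30.2 in dry seed. Water and dry seed overlapped and only the ABA arrays were high, by 1.94 ± 0.27 over water (limma adjusted p = 0.0273). The 3 other subunits, rpoA, rpoB and rpoC1, had differences between 0.49 and 0.65 and did not pass. Of the 15 ribosomal protein genes, rps4 and rps2 were called higher than water. The list's median was 0.49, or 0.30 with spike-ins, where rps4 alone was called. The small-subunit gene rps4 had 320 and 451 in 30 µM ABA, 87.9 and 131.5 in water, and 73.1 and 58.1 in dry seed. For rps2 the signals were 251 and 262 in 30 µM ABA, 114 and 81.6 in water, and 84.3 and 98.4 in dry seed. Both genes stood above the dry seed level in ABA.

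Of the 13 genes for the cytochrome b6f complex, ATP synthase and Rubisco, atpA and atpF were called higher than water. Both encode ATP synthase subunits, and the list's median was 0.74. For atpA the signals were 528 and 531 in 30 µM ABA, 205 and 199 in water, and 178 and 134 in dry seed. The difference from water was 1.37 ± 0.20 (limma adjusted p = 0.0273), and the difference between ABA and dry seed was 1.75. The atpF gene had 174.5 and 139 in 30 µM ABA, 36.2 and 53.5 in water, and 44.0 and 35.9 in dry seed. Of the 10 called plastid genes, 5 were also called higher in ABA than in dry seed, which were rpoC2, rps4, atpF, atpA and rps2, and none of these 5 was called between water and dry seed. All 5 remained called above dry seed under the 3 other scalings, while spike-in scaling also called them higher in water than in dry seed.

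The photosystem and NDH lists follow. Of 20 photosystem genes all lay above water, 13 with an unadjusted p under 0.05 and 3 called, with a median of 0.58. Over all tested probe sets, 8.48% had such a p and 0.415% were called higher. The photosystem II gene psbT had 32.8 and 36.9 in 30 µM ABA, 7.06 and 8.18 in water, and 88.7 and 60.3 in dry seed. For psbB, also of photosystem II, the signals were 71.3 and 71.7 in 30 µM ABA, 22.1 and 29.5 in water, and 125 and 126.5 in dry seed. In these deposited signals both genes were highest in dry seed, but with spike-ins their ABA minus dry differences of -0.34 and -0.11 were not called. The photosystem I core gene psaB had 213 and 277 in 30 µM ABA, 86.3 and 106 in water, and 151 and 208 in dry seed. Among 9 NDH genes, which encode the plastid NADH dehydrogenase-like complex, all lay above water and ndhD was called, with 212 and 258 in 30 µM ABA, 98.3 and 79.5 in water, and 242 and 191 in dry seed. The ABA arrays of psaB lay just above the dry seed arrays and those of ndhD overlapped with them, and neither gene was called against dry seed in the analysis reported. With spike-ins psaB and ndhD were called higher than dry seed, at 1.12 and 0.80, and with a common median ndhD was called lower, at -0.51. The remaining called plastid gene was ycf3, needed to assemble photosystem I, with 34.8 and 49.3 in 30 µM ABA, 12.03 and 12.3 in water, and 73.0 and 52.5 in dry seed. It was called lower than dry seed with a common median, at -1.14, and with quantile normalization, at -0.87, but not otherwise.

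The 1 plastid gene on the other side was clpP, which encodes the proteolytic subunit of the plastid Clp protease and is named here after its value was seen. It had 568 and 521 in 30 µM ABA, 857 and 712 in water, and 1013 and 996 in dry seed, a difference of -0.52 that did not pass after adjustment. Against dry seed, 34 of the 68 plastid genes were called lower in water and 3 higher, while in 30 µM ABA 15 were called lower and 18 higher. Over all tested probe sets, 28.5% were called lower and 37.5% higher in water, and 26.0% lower and 36.7% higher in 30 µM ABA. The median difference of the plastid genes from dry seed was 0.13 in 30 µM ABA and -0.60 in water. These placements move with the scaling, to -0.49 in ABA and -1.14 in water with a common median, and to 0.81 in ABA and 0.25 in water with spike-ins, so no direction against dry seed holds for the plastid genes as a list.

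Mitochondrial transcripts were also higher, from a different base. Of 13 tested genes, 12 lay above water, 7 with an unadjusted p under 0.05, and the median was 0.67. Such a p was reached by 8.48% of all tested probe sets, and 0.415% were called higher. The called gene was ccb382, which is needed to assemble cytochrome c, with 131 and 130 in 30 µM ABA, 39.3 and 51.1 in water, and 86.1 and 90.1 in dry seed. The difference from water was 1.46 ± 0.21 (limma adjusted p = 0.0273). Its difference between ABA and dry seed was 0.55 (limma adjusted p = 0.0403), but it was not called with quantile normalization, at 0.41, or a common median, at -0.069, whereas 12 of the 13 were called lower in ABA than in dry seed and all 13 were called lower in water. With spike-ins 9 of 13 were called lower in each. In the analysis reported, 26.0% of all tested probe sets were called lower than dry seed in ABA and 28.5% in water. The nuclear genome carries a large copy of mitochondrial DNA, so these probe sets may also read nuclear copies.

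**Figure D3:**
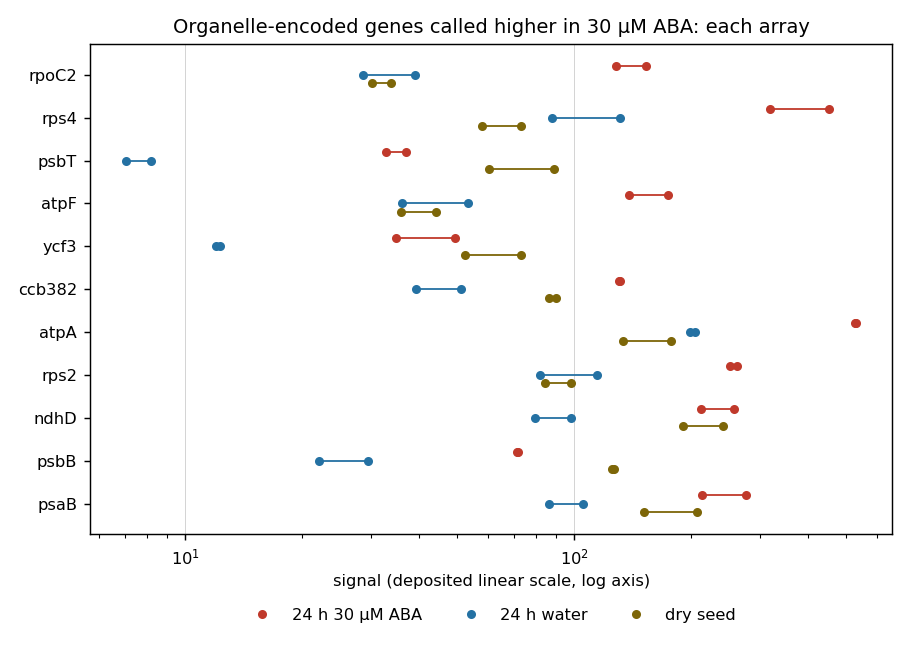
Deposited signal on each array (horizontal log axis) for the 10 plastid genes and the 1 mitochondrial gene called higher in 30 µM ABA than in water, 1 row per gene. Each point is 1 array, and a line joins the 2 arrays of 30 µM ABA, of water or of dry seed. The ABA pair lies above the water pair in all 11 rows, with dry seed near water for rpoC2 or above ABA for psbB.

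Organellar transcripts are read beside the control probe sets. The 25S ribosomal RNA control gave 28.3 and 13.6 in 30 µM ABA, against 7.25 and 10.1 in water. The signal ratio between 3′ and 5′ probe sets was 0.956 and 0.974 in 30 µM ABA and 1.31 and 1.05 in water for 1 GAPDH control, and 2.69 and 2.30 in 30 µM ABA and 2.94 and 3.80 in water for 1 actin control. The other 4 such ratios overlapped between ABA and water, but the 2 water arrays differed and water array A lay above both ABA arrays in each. The ubiquitin ratios were 1.83 and 1.32 on water array A, against 0.792 and 0.827 on water array B. The 5S ribosomal RNA control gave 1.58 and 3.46 in 30 µM ABA and 2.72 and 1.996 in water, with overlap. ABA arrays were thus above water in 1 of 2 ribosomal controls and below it in 2 of 6 ratios, and the part of RNA quality in the organellar values was not tested.

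The 4 named genes called lower in 30 µM ABA than in water all had less signal in dry seed than in either imbibed group. AT1G47400 encodes a small peptide that promotes iron uptake. Its signal was 12.7 and 25.6 in 30 µM ABA, 142 and 72.1 in water, and 5.17 and 2.83 in dry seed, with no overlap between ABA and water although the water arrays differed about 2-fold. The difference was -2.24 ± 0.37 (limma adjusted p = 0.0423). In 3 µM ABA it had 63.2 and 45.1. The other tested member of the iron list, AT5G67590, carries the symbol FRO1 but is the complex I gene also called FROSTBITE1, and it differed by -0.32 without passing.

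Both tested members of the GDSL family of esterases and lipases were called lower than water, against 0.0377% of all tested probe sets. Like all lists here, the GDSL and iron lists were drawn up with earlier results of these arrays known, so their counts are not independent evidence. AT5G45950 had 10.8 and 4.91 in 30 µM ABA, 41.3 and 50.6 in water, and 1.08 and 0.930 in dry seed. AT4G16230 had 49.2 and 52.7 in 30 µM ABA, 130 and 135 in water, and 11.1 and 14.4 in dry seed. Their differences from water were -2.11 ± 0.35 and -1.31 ± 0.22 (limma adjusted p = 0.0423 and 0.0428), and both were called higher in ABA than in dry seed under all 4 scalings. AT3G22210 had 43.3 and 61.5 in 30 µM ABA, 119 and 125 in water, and 29.5 and 34.3 in dry seed, a difference of -1.18 ± 0.20 (limma adjusted p = 0.0458). Its excess over dry seed in ABA, 0.64, was 0.16 after quantile normalization and 0.054 with a common median, and was not called in either. Signals of a few units are not shown to exceed background, as no detection calls were used.

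Lists of seedling growth held no called member, where 0.415% of all tested probe sets were called higher and 0.0377% lower. At those shares a list of this size would seldom hold a call. Cell wall loosening genes, the expansins and xyloglucan-modifying enzymes, had a median of -0.085 over 16 members with none called, 5 above and 11 below water. With spike-ins the median was -0.27 and XTH18 was called, at -1.62. The same genes were at 2.65 in water and 2.31 in 30 µM ABA relative to dry seed (log2 medians), and 11 of 16 were called higher than dry seed in each. Over all tested probe sets, 37.5% were called higher than dry seed in water and 36.7% in 30 µM ABA. The smallest p of the list belonged to XTH18, with 15.8 and 34.4 in 30 µM ABA, 37.7 and 126 in water, and 2.03 and 0.803 in dry seed, a difference of -1.42 ± 0.51 (limma adjusted p = 0.446). Tubulins, the subunits of microtubules, had a median of -0.13 over 7 members with none called, and of -0.34 with spike-ins. TUA6 had 1395 and 1149 in 30 µM ABA, 1953 and 1429 in water, and 12.9 and 20.5 in dry seed, and lies in the bright range where most probe sets were below water. PRL, a subunit of the replication helicase, had 93.5 and 87.4 in 30 µM ABA, 96.1 and 112 in water, and 12.4 and 6.63 in dry seed, a difference of -0.19, or of -0.39 with spike-ins.

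Nuclear photosynthesis genes lay on the other side from the plastid ones. Of 8 tested, 7 were below water, 3 had an unadjusted p under 0.05 and none was called, with a median of -0.39. Such a p was reached by 8.48% of all tested probe sets. With spike-ins the median was -0.57 and 1 member was called lower. RCA, the activase of Rubisco, had 126 and 140 in 30 µM ABA, 241 and 279 in water, and 29.6 and 49.1 in dry seed. The arrays did not overlap, and the difference of -0.95 ± 0.22 had a limma adjusted p of 0.128. PORB, a chlorophyll synthesis enzyme named here after its values were seen, had 20.03 and 23.2 in 30 µM ABA, 42.6 and 87.7 in water, and 2.33 and 1.49 in dry seed. The contrast between plastid and nuclear photosynthesis genes was not tested.

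Serine carboxypeptidase-like genes, a family of acyltransferases and proteases, had 11 of 15 members below water and a median of -0.33 with none called. For 10 members both ABA arrays lay below both water arrays, against 19.2% of all tested probe sets. The summed signal of the 15 members was 7312 and 7242 in 30 µM ABA, 9541 and 8417 in water, and 735 and 961 in dry seed. The list's median was -0.14 after quantile normalization. It was -0.40 after common-median scaling, and -0.54 with spike-ins, where SCPL34 was called. SCPL34 had the smallest p, with 31.6 and 30.4 in 30 µM ABA, 53.0 and 110 in water, and 1.18 and 0.497 in dry seed, a difference of -1.21 ± 0.32 (limma adjusted p = 0.199).

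In the remaining lists no member passed the test, which is also usual for short lists when so few probe sets are called. Glycosyltransferases of the UGT family had a median of 0.099 over 33 members (-0.097 with spike-in scaling), and UGT87A2 had the smallest p with a difference of 0.82 (limma adjusted p = 0.324). Autophagy genes had a median of 0.029 over 10 members (-0.038 after common-median scaling, -0.17 with spike-ins), with ATG8G at -0.24. Gibberellin genes had a median of 0.058 over 3 members (-0.011 after quantile normalization, -0.0031 after common-median scaling, -0.13 with spike-ins). GID1A, a gibberellin receptor, had 208 and 230 in 30 µM ABA, 153.5 and 163 in water, and 816 and 738 in dry seed, a difference of 0.46 ± 0.19 (limma adjusted p = 0.516). Storage lipid breakdown had a median of 0.052 over 4 members (-0.15 after spike-in scaling, -0.016 after common-median scaling), with the lipase SDP1 at 0.28. In that list ICL, the glyoxylate cycle enzyme isocitrate lyase, singled out after its values were seen, had 35.0 and 33.8 in 30 µM ABA, 695 and 0.127 in water, and 3260 and 100 in dry seed, so the 2 water arrays and the 2 dry seed arrays disagree with each other. Both tested small heat shock proteins lay above water with a median of 0.64, and ATHSP22.0 had 18.3 and 13.8 in 30 µM ABA, 9.18 and 10.6 in water, and 428 and 210 in dry seed. SAPX, a plastid ascorbate peroxidase, differed by 0.086, or by -0.12 with spike-in scaling, DFR, a flavonoid enzyme of the seed coat, by -0.11, and MUTE, a stomatal lineage factor, by -0.29. The lists of ABA receptors, phosphatases and kinases, ABA synthesis and breakdown, cytosolic ribosomal proteins, raffinose and trehalose sugars, type 2C protein phosphatases, lipid transfer proteins and endosperm markers matched no tested single-gene probe set by the loci and symbols searched, and such genes were not analysed here.

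**Figure D4:**
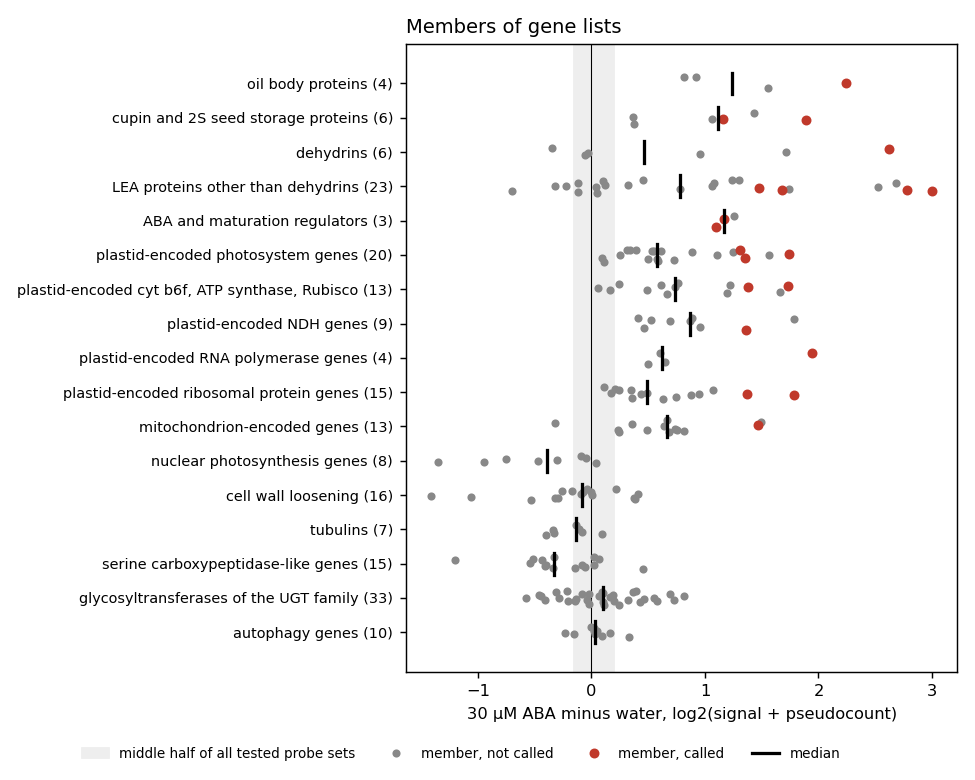
Log2 difference between 30 µM ABA and water (horizontal axis) for the members of 17 gene lists, with the number of tested members in brackets, called members in red, a bar at each list's median and a grey band between the quartiles of all tested probe sets (-0.16 and 0.20). Seed maturation and organellar lists lie mostly to the right of the band and growth lists mostly within it or to its left.

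The 4 further probe sets named have no gene in the annotation used. The probe set 248337_at had the largest difference of all, 3.68 ± 0.59, with 66.2 and 331 in 30 µM ABA, 7.80 and 8.19 in water, and 295 and 321 in dry seed. Its 2 ABA arrays lay on either side of the dry seed arrays, and it was not called against dry seed, except lower with a common median, at -1.65. The probe set 255049_at had 103 and 89.3 in 30 µM ABA, 10.6 and 14.9 in water, and 2966 and 1635 in dry seed. On the lower side, 264146_at had 2.57 and 6.81 in 30 µM ABA, 24.1 and 50.8 in water, and 2.44 and 1.75 in dry seed. The last, 267517_at, had 94.2 and 102 in 30 µM ABA, 208.5 and 265 in water, and 9.05 and 6.92 in dry seed.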

How the data were processed

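Signal intensity was measured on 8 one-colour arrays, 4 groups of 2, and the deposited intensity values were made with MAS5, per the submitters' processing notes. Their 2% trimmed means are equal, and no further scaling was applied. The control probe sets (64) were left out. Tests ran on log2(signal + 3.99), a scale that understates changes of dim genes. The added constant is the 20th percentile over the whole table. Probe sets with a mean log2 signal above the 30th percentile were kept (15922). All 8 arrays were fitted in limma 3.58.1 (R 4.3.3) with an intensity trend, two-sided, with Benjamini-Hochberg adjustment over all kept probe sets and a threshold of 0.05. The scripts were tested on simulated data. With 2 arrays a group precision is limited by their number, and an exact permutation test of 2 against 2 cannot give a p below 0.333.

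Gene names came from the platform's annotation, updated through RefSeq names (TAIR10.1): 13513 probe sets had 1 gene, 503 had several and 8730 had none, and 13436 were matched in RefSeq. No sequence or coordinate was used. The genes named are every lower one and the 15 largest higher ones among called single-gene probe sets, up to 3 called members of each list by smallest p or, where fewer than 2 were called, also the member with the smallest p, and 2 unnamed probe sets at each end. Members and lists were chosen with earlier results of these data known. Alternatives changed the pseudocount, filter, scaling, trend, arrays in the fit and a block on the replicate letter.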

Additional observations from a re-analysis of the deposited data

How the results depend on the processing

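For 30 µM ABA against water, 72 probe sets were called in the analysis reported. The number was 38 with a pseudocount of 1, 11 with no filter, 202 with spike-in scaling, 2 without the intensity trend, 129 in a fit of 6 arrays without 3 µM ABA and 153 in a fit of the 4 compared arrays. With the replicate letter as a block it was 135, including all 72. The labels do not say that a letter pairs arrays, and the A minus B differences of the 30 µM ABA and water groups correlated at 0.23 over probe sets. Leaving out 1 array gave 0 to 85 calls. It gave 5 without ABA array A and 0 without ABA array B, water array A or water array B, where 778, 1139 and 1348 probe sets had an unadjusted p under 0.05 in limma. In these fits the lone array is assumed to vary like the other groups. All 72 kept their direction in every setting, except 6 not measured with the filter at the median. They were chosen by their p on these same arrays, so this outcome is a description and not a test of them. Calls against dry seed stayed within 8175 to 10436 for 30 µM ABA and 8540 to 10790 for water. Their share of higher calls ranged from 34.8% (common median) to 82.3% (spike-in) for ABA, against 58.5% as reported, and from 37.8% to 83.2% for water, against 56.8%. The median of all probe sets in 30 µM ABA minus dry seed moved to -0.41 and 0.76 under those scalings, against 0.17. Values against water that changed sign, none of which had been called, included list medians near 0, given with those lists, and 3 genes, SAPX at -0.12 with spike-in scaling and at -0.047 to 0.22 with 1 array left out, DFR at -0.77 to 0.54 with 1 array left out and ATG8G at -0.55 to 0.084 with 1 array left out. The lowest SAPX value came without ABA array A, and the highest DFR and ATG8G values without water array A. Against dry seed ccb382, called higher in ABA at 0.55, was at -0.069 with a common median. The cause of these shifts was not tested.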
